A study of Rattus norvegicus with 6 samples.

Results

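The miRNAs described here are 6 mature RNAs of the miR-15 family that lie outside the miR-322 cluster: rno-miR-15b-5p, rno-miR-15b-3p, rno-miR-16-5p, rno-miR-195-5p, rno-miR-195-3p and rno-miR-497-5p, written below without the species prefix. They were taken by name from a table of 1191 mature IDs measured in rat heart, of which 699 carry miRBase names and 492 are marked as predicted. The study compared 3 normal hearts with 3 hearts after ischemia-reperfusion (I-R), in which a coronary artery, the left anterior descending, was ligated for 0.5 h and flow was restored for 0.5 h. The labels give all hearts as wild type (WT), the normal hearts as control, and no strain, age or sex. They number the hearts and say no more about their origin, so a p-value covers only the spread among these 6 samples, which may be technical in part. All values are counts of small RNA tags, summed over the sequence variants (isoforms) of a miRNA unless stated otherwise. Levels are given as CPM, counts scaled by library total and TMM factor.

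A miRNA precursor is a hairpin that is cut into a 5p and a 3p arm; the arm that is mostly loaded into Argonaute is called the guide and the other the passenger. The guide finds its target mRNAs mainly through its seed, bases 2 to 8. The miR-15 family shares a seed that is known in human and mouse cells for repressing cyclins and other cell-cycle genes and the survival gene Bcl2. In the mouse heart the family is known for the exit of muscle cells from the cell cycle after birth, and miR-195 is the member best known for it.

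The listed mature sequences are shown because the shared seed defines the pool of miRNAs counted further on and because the arms of miR-195 differed in their change. All 6 matched RefSeq entries (assembly GRCr8), with the seed in capitals:
miR-15b-5p: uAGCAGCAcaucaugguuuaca
miR-16-5p: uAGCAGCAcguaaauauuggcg
miR-195-5p: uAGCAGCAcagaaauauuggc
miR-497-5p: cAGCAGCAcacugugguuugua
miR-15b-3p: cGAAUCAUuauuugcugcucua
miR-195-3p: cCAAUAUUggcugugcugcucca

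The 4 5p members share the seed AGCAGCA, and each of the 2 3p members has a seed of its own. Their genes form pairs on the plus strand of GRCr8. miR-15b-5p (chr2:155555197-155555218), miR-15b-3p (chr2:155555235-155555256) and miR-16-5p (chr2:155555343-155555364) come from Mir15b and Mir16, which lie 51 bases apart within the span of Smc4, a condensin gene. Whether they are exonic or intronic there was not determined. Whether miR-16-5p also comes from another gene was not determined either. miR-497-5p (chr10:55450172-55450193), miR-195-5p (chr10:55450509-55450529) and miR-195-3p (chr10:55450547-55450569) come from Mir497 and Mir195, which lie 255 bases apart and overlap no other gene in the RefSeq table. Over 21 bases miR-16-5p and miR-195-5p differ by G10A and U11G, counted from the 5′ end of miR-16-5p. The sources used here do not give the mismatch limit of the counting, so the split of reads between these miRNAs is uncertain. The same holds for miR-15b-5p and its relative miR-15a-5p, which differ by A12C over 19 bases, counted from the 5′ end of miR-15a-5p.

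The mir-195 hairpin (chr10:55450495-55450581) is shown with both arms in capitals, 5p first, because these arms differed in their change after I-R:
mir-195: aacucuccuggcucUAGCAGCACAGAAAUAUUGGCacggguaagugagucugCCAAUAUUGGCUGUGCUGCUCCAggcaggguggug

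Library totals were 6963312 to 8429988 counts in normal hearts and 1376947 to 2814802 after I-R, so depth and group cannot be told apart. Predicted entries took 1.09% to 1.29% of counts in normal and 5.46% to 13.6% in I-R libraries. Heart muscle markers were abundant in every library, with counts for 7 of 7 and 21.99% to 40.5% of all counts. Shares of counts of the endothelial list (2 of 2 with counts), the smooth muscle and fibroblast list (4 of 4) and the leukocyte list (5 of 5) overlapped between the groups. The erythroid list (4 of 4) was lower after I-R, at 0.164% to 0.203% against 0.238% to 0.263%. The liver miRNA miR-122-5p was higher, at 0.00814% to 0.0972% against 0.00273% to 0.00753%. In whole hearts, fewer cells of a type and less RNA per cell cannot be told apart.

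All 6 members passed the filter on low counts, and 1 of them, miR-195-3p, fell after I-R. Of the 305 miRBase-named miRNAs among the 524 entries tested, edgeR's quasi-likelihood test called 13.8% lower and 0.984% higher (9.35% and 33.4% over all entries). No member was called higher by edgeR, DESeq2 or limma-voom, and 0 had an unadjusted p under 0.05 in that direction in any of these tools. The median log2 fold change was -0.28 over the 6 members and -0.17 over the 4 5p members, beside -0.40 over the 305 miRBase-named miRNAs. That last median moved with the scaling, to -0.29 with RLE factors, -0.89 with upper-quartile factors, -0.16 with total counts and -0.05 with factors taken from miRBase-named miRNAs. Relative to the median, miR-195-3p stood at -1.04 (-1.05 to -1.04 over the other 4 scalings). The 5p members stood between 0.06 for miR-195-5p and 0.46 for miR-15b-5p. miR-15b-3p stood at -0.74 (-0.78 to -0.72 over the other 4 scalings), but its log2 fold change had an SE of 0.75. It passed the filter through the normal libraries alone.

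miR-16-5p, the most abundant member and one of the best-known repressors of Bcl2 in human cells, was at 495, 425 and 366 CPM in normal replicates 1 to 3. It was at 345, 351 and 401 CPM in I-R replicates 1 to 3. The groups overlapped, with means of 428 ± 64.7 and 366 ± 30.5 CPM (SD, n = 3 per group). Its log2 fold change was -0.23 ± 0.17 (SE; edgeR adjusted p = 0.312), and it turned positive with total counts (0.01) or with factors taken from miRBase-named miRNAs (0.11). miR-16 is also abundant in red blood cells, and the erythroid marker share given above was lower in the I-R libraries; its part in the miR-16-5p values was not tested.

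miR-195-5p, the guide arm of the miRNA best known from the postnatal mouse heart, was at 259.4, 334.5 and 287.2 CPM in the normal libraries. After I-R it was at 191.0, 230.7 and 273.3 CPM. The highest of these lay above the lowest normal value, so the groups overlapped. Means were 294 ± 38.0 and 232 ± 41.1 CPM (SD, n = 3 per group), a log2 change of -0.34 ± 0.19 (SE; edgeR adjusted p = 0.201). With upper-quartile factors, under which 47.5% of miRBase-named miRNAs were called lower, miR-195-5p (log2 fold change -0.83, edgeR adjusted p = 0.0279) and miR-16-5p (-0.73, adjusted p = 0.0354) were also called lower.

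miR-497-5p, which is encoded beside miR-195 and carries the same seed, was at 42.9, 66.2 and 57.0 CPM in normal libraries and at 39.5, 63.7 and 50.1 CPM after I-R. The ranges lay almost on top of each other, with means of 55.4 ± 11.8 and 51.1 ± 12.1 CPM (SD, n = 3 per group). Its log2 fold change was -0.11 ± 0.26 (SE; edgeR adjusted p = 0.744), with a sign that turned under 3 scalings (0.01 with RLE factors, 0.13 with total counts, 0.24 with factors taken from miRBase-named miRNAs).

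miR-15b-5p, the guide encoded beside miR-16, was at 19.2, 16.4 and 9.12 CPM in normal libraries and at 18.1, 13.2 and 15.5 CPM after I-R. Normal replicate 3 was the lowest of all 6 libraries, and the groups overlapped. The values rest on 28 to 129 counts per library. The means were 14.9 ± 5.22 and 15.6 ± 2.49 CPM (SD, n = 3 per group), and the log2 fold change was 0.06 ± 0.39 (SE; edgeR adjusted p = 0.907), which turned to -0.27 without normal replicate 3 and to -0.47 with upper-quartile factors.

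miR-195-3p, the passenger arm of miR-195, was counted 917, 1420 and 1270 times in normal libraries and 79, 153 and 193 times after I-R. On the CPM scale it was at 144.5, 180.9 and 167.8 in normal libraries and at 51.1, 62.9 and 66.7 after I-R. Every I-R value lay below every normal value, which was also so for 38.7% of the miRBase-named miRNAs (the reverse held for 2.30%). The mean fell from 164.4 ± 18.4 to 60.2 ± 8.10 CPM (SD, n = 3 per group). The fitted log2 change of -1.45 ± 0.19 (SE, edgeR adjusted p = 0.00217), a 2.72-fold fall, was the 10th lowest of the 305. The call held under all 19 alternatives tried, among them upper-quartile factors (-1.94) and a fit of miRBase-named miRNAs alone (-1.10, edgeR adjusted p = 0.00232), in which 0.984% were called lower and 1.64% higher. The I-R libraries also held fewer counts and a larger share of predicted entries. With all libraries thinned to the smallest total, the log2 change of miR-195-3p was -1.35 (edgeR adjusted p = 0.00209); what part the predicted entries have in it was not tested beyond the fit without them.

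miR-15b-3p, the passenger arm of miR-15b, ranked 296th of the 305 miRBase-named miRNAs tested by mean CPM. It had 24, 24 and 19 counts in normal libraries and 0, 6 and 4 after I-R, and it passed the filter through the 3 normal libraries, which the I-R libraries alone would not have allowed. This corresponds to 3.78, 3.06 and 2.51 CPM against 0, 2.47 and 1.38 CPM, which do not overlap by a narrow margin. Groups were apart in this direction for 38.7% of the miRBase-named miRNAs and in the other for 2.3%. The log2 change of miR-15b-3p, -1.14 ± 0.75 (SE), did not pass (edgeR adjusted p = 0.264). The deposited counts start at 2, so its 0 in I-R replicate 1 does not show that the tag was missing from that library.

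**Figure D1:**
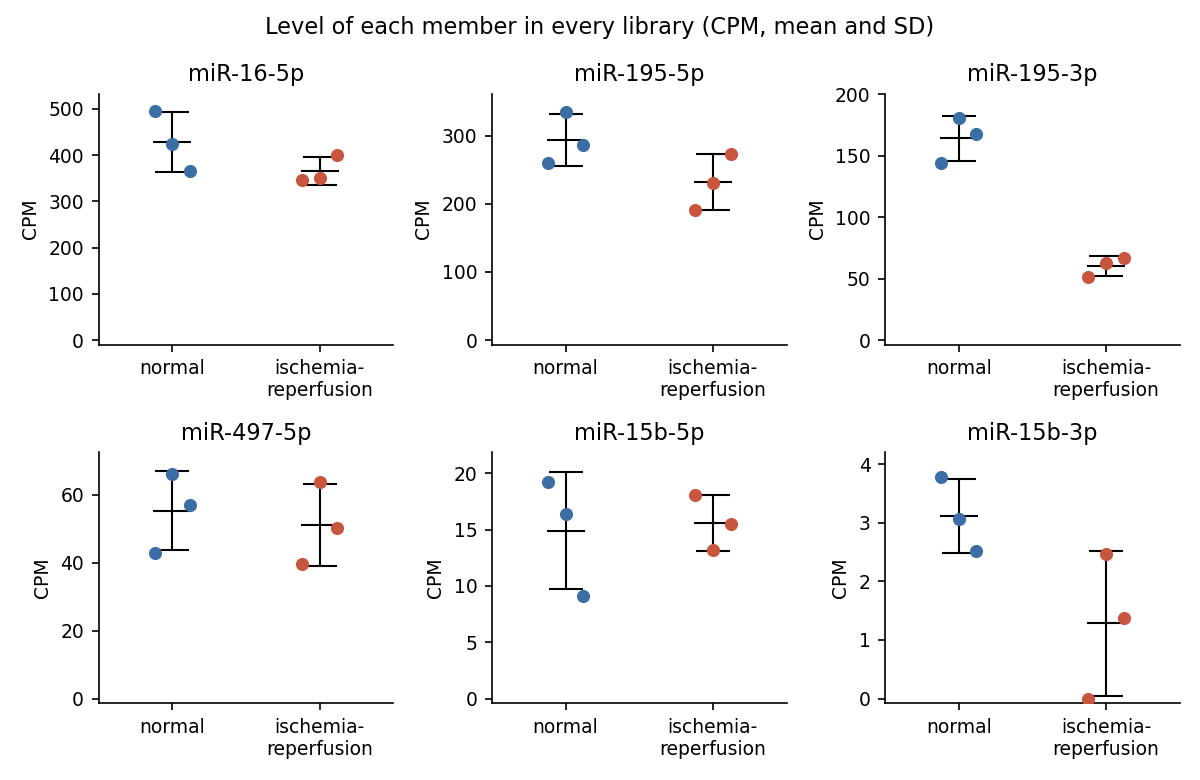
CPM of the 6 members in each library (points, blue for normal and red for I-R hearts), with the group mean and SD as bars; each panel has its own axis. The miR-195-3p points separate widely, at 144.5 to 180.9 CPM against 51.1 to 66.7 CPM, the miR-15b-3p points narrowly, and those of the 4 5p members overlap.

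Mature miRNAs are of nearly equal length, so CPM were compared between members without scaling by length. How well each sequence is ligated and amplified was not measured, so the order below is one of counts. In normal hearts the order was miR-16-5p, miR-195-5p, miR-195-3p, miR-497-5p, miR-15b-5p and miR-15b-3p, with no overlap between neighbours. After I-R the order of the means was the same, but miR-195-3p (51.1 to 66.7 CPM) and miR-497-5p (39.5 to 63.7 CPM) were no longer apart. By mean CPM miR-16-5p ranked 84th and miR-195-5p 93rd of the 305 miRBase-named miRNAs, so the family was not among the most counted in these libraries. The 6 members together held 0.0884% ± 0.00884 of all counts in normal and 0.0786% ± 0.00561 in I-R hearts (SD, n = 3 per group; two-sided exact permutation p = 0.3, adjusted p = 0.6). The 4 5p members held 0.0730% ± 0.00784 and 0.0720% ± 0.00486 (SD, n = 3 per group; exact permutation p = 0.9, adjusted p = 0.9).

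Ratios within a library do not depend on scaling between libraries, and they set the miR-195 arms apart. For each count of miR-195-5p there were 0.557, 0.541 and 0.584 counts of miR-195-3p in normal replicates 1 to 3. In I-R replicates 1 to 3 there were 0.268, 0.273 and 0.244. The passenger arm was thus 2.15-fold lower relative to its guide, and the log2 ratio moved from -0.84 ± 0.06 to -1.94 ± 0.09 (SD, n = 3 per group), a difference many times the spread within either group. The two-sided exact permutation test gave p = 0.1, the smallest that 3 against 3 allows, and p = 0.5 adjusted over the 5 ratios tested. Thinned to the depth of the smallest library, the log2 ratio differed by -1.09, beside -1.10 at full depth.

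The other 4 ratios overlapped between the groups. miR-15b-3p per miR-15b-5p was 0.197, 0.186 and 0.275 in normal libraries and 0.188 and 0.0889 in I-R replicates 2 and 3; replicate 1, at 0, was left out (exact permutation p = 0.4, adjusted p = 0.6; 0.2 is the smallest possible). Between the neighbours on chromosome 10, miR-497-5p per miR-195-5p was 0.165 to 0.198 in normal and 0.183 to 0.276 in I-R libraries (exact permutation p = 0.4, adjusted p = 0.6). Between the neighbours on chromosome 2, miR-16-5p was counted 25.7 to 40.1 times as often as miR-15b-5p in normal and 19.04 to 26.7 times as often in I-R libraries (exact permutation p = 0.5, adjusted p = 0.6). Any miR-16-5p counts from another gene would be included in this ratio. The 2 most abundant guides, miR-195-5p and miR-16-5p, stood at ratios of 0.524 to 0.788 and 0.553 to 0.682 (exact permutation p = 0.6, adjusted p = 0.6).

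Against other miRNAs, the change in the miR-195 arm ratio lay near the low end. In 86 pairs of a 5p and a 3p arm from 1 precursor both arms were tested and counted in every library; 10 of the pairs share an arm with another pair. The arm with the lower mean CPM over all 6 libraries was taken as the less abundant. The log2 ratio of the less to the more abundant arm changed by a median of -0.12, with quartiles of -0.43 and 0.20. The group values did not overlap in 13.95% of these pairs with the less abundant arm lower after I-R, and in 8.14% with it higher. miR-195 was the third lowest of the 86, at -1.10. The lowest pair, miR-3068 (named here after its values were seen) at -1.89, is one whose arm order turned between the groups. With the less abundant arm taken from the normal libraries alone, an alternative added after seeing the data, only that pair (1 of 86) was designated the other way, the median was again -0.12 and miR-195 was the second lowest. The related miR-503 changed by -0.09 with overlapping groups, and miR-322, whose less abundant arm is the 5p arm, by 0.34 without overlap. In counts of the exact listed sequences, which left 46 pairs with a median of 0.01, miR-195 was the lowest at -1.77.

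**Figure D2:**
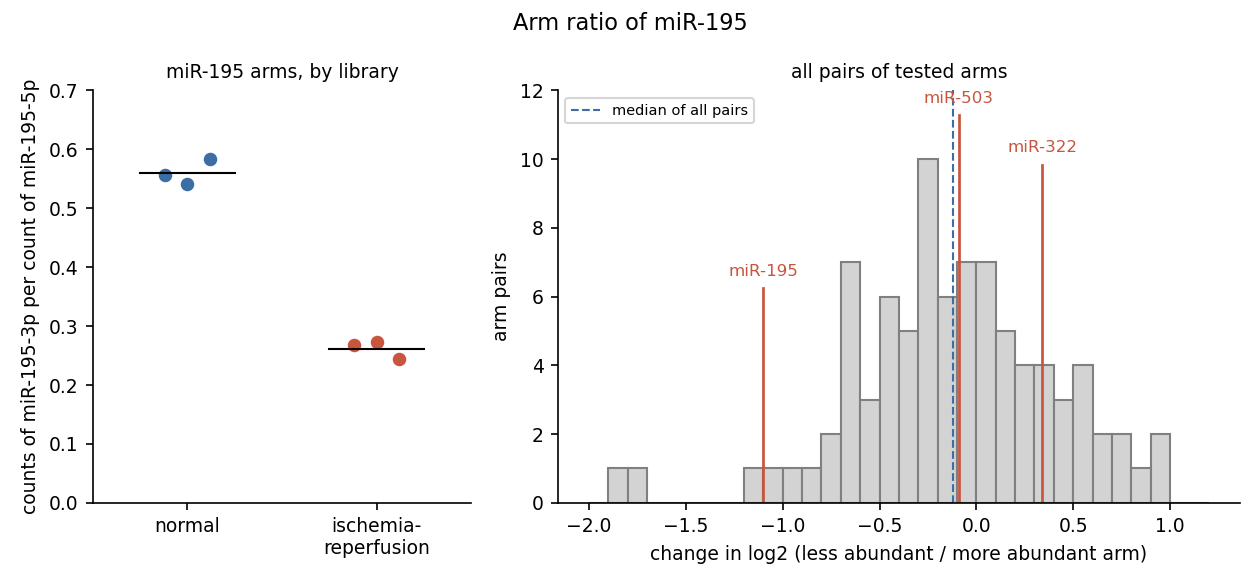
Left, counts of miR-195-3p per count of miR-195-5p in each library (points) with the group mean (line). Right, number of arm pairs by the change, I-R minus normal, in the log2 ratio of the less to the more abundant arm over 86 arm pairs; miR-195 lies at -1.10, miR-503 at -0.09 and miR-322 at 0.34, and the dashed line marks the median of -0.12.

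The table also counts, for each miRNA, the exact listed sequence and the most abundant sequence. For 3 members (miR-15b-5p, miR-195-5p and miR-497-5p) these were identical. For miR-16-5p and miR-15b-3p the most abundant sequence lacked the last base. For miR-195-3p it was 1 base shorter and differed by C22U, counted from the 5′ end of the listed sequence; the 3′ ends that differ are in capitals:
miR-195-3p, listed: ccaauauuggcugugcugcucCA
miR-195-3p, most abundant: ccaauauuggcugugcugcucU

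Every part of the miR-195-3p isoforms was lower after I-R. The exact listed sequence went from 35.3 ± 6.63 to 8.37 ± 0.864 CPM, 4.22-fold lower, and the most abundant sequence from 39.2 ± 0.873 to 15.5 ± 4.08 CPM, 2.53-fold lower (SD, n = 3 per group). The remaining isoforms went from 89.9 ± 11.4 to 36.4 ± 4.60 CPM, 2.47-fold lower (SD, n = 3 per group). The exact sequence made up 19.4%, 22.7% and 21.97% of miR-195-3p counts in normal libraries and 17.7%, 11.8% and 12.95% after I-R. These shares did not overlap (exact permutation p = 0.1, which is the smallest possible; adjusted p = 0.6), which held in this direction for 8.12% of 271 miRBase-named miRNAs and in the other for 16.6%. With 14 exact counts in I-R replicate 1, its 95% Wilson interval of 10.9% to 27.6% covered all normal values; such intervals cover counting error only. The most abundant sequence held 21.6% to 26.6% of counts in normal and 21.5% to 28.5% in I-R libraries.

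The exact-sequence shares of the 5p members varied between libraries more than between groups. For miR-195-5p they were 22.1% to 34.0% in normal and 26.7% to 35.9% in I-R libraries. For miR-497-5p they were 24.6% to 47.8% and 25.5% to 47.5%, and for miR-15b-5p 33.3% to 62.3% and 42.2% to 57.1%. miR-16-5p was mostly counted as other isoforms, with 9.32% to 14.4% and 11.01% to 11.6% as the listed sequence. None of these 4 members' shares separated the groups (exact permutation p = 0.7 to 1.0, adjusted p = 1.0 for each). For miR-15b-3p the exact sequence had 3, 3 and 5 counts in normal and 0 in every I-R library.

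The pool of all miRNAs that start with the shared seed was counted next, because miRNAs with the same seed can bind the same sites. It held 6 miRBase-named entries, the 4 5p members with miR-15a-5p and miR-322-5p, and 0 predicted entries. The pool took 0.0712% to 0.0878% of all counts in normal and 0.0744% to 0.0836% in I-R libraries (exact permutation p = 0.9). Within it miR-16-5p made up 55%, 45.9% and 46.1% in normal and 52.1%, 47.7% and 49.3% in I-R libraries. The share of miR-195-5p was 28.8%, 36.2% and 36.2% in normal and 28.8%, 31.3% and 33.6% in I-R libraries. miR-322-5p held 6.22% to 8.20%, miR-497-5p 4.76% to 8.66%, miR-15a-5p 1.65% to 3.06% and miR-15b-5p 1.15% to 2.73% over the 6 libraries. All 6 shares overlapped between the groups, and the 95% Wilson intervals reached at most 3.05 points to either side.

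**Figure D3:**
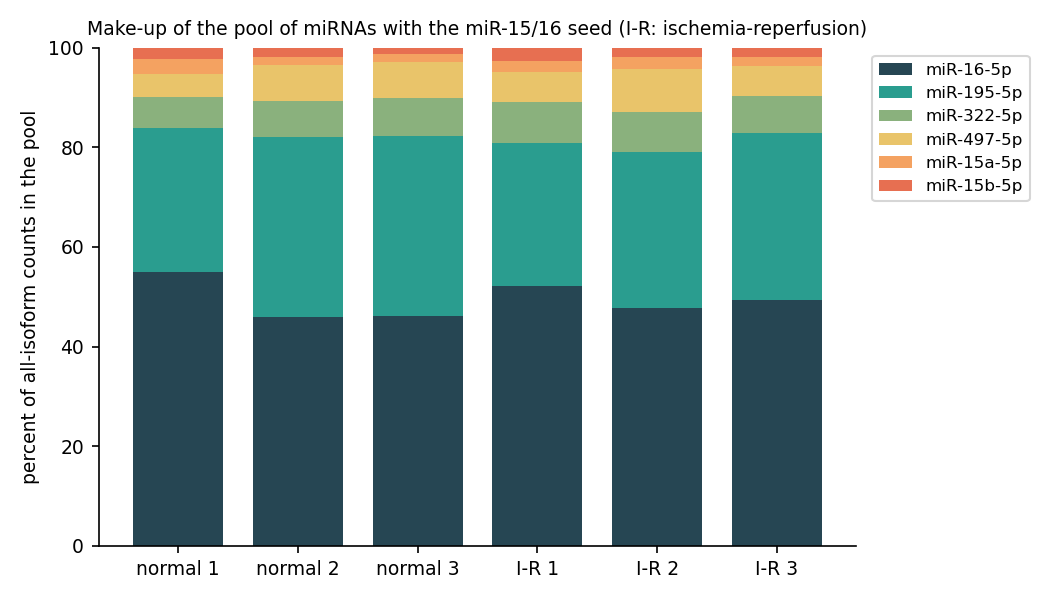
Percent of the counts of all miRNAs with the seed AGCAGCA that each of them held, in each library (stacked bars adding to 100%). miR-16-5p made up 45.9% to 55% and miR-195-5p 28.8% to 36.2%, and the make-up overlapped between the groups.

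Outside the 6 members, 10 miRNAs of the wider group, which carries AGCAGC near the 5′ end of its guides, or other arms of the same precursors were listed, and 8 were tested. miR-15a-3p and miR-497-3p had no counts in any library. None of the 8 was called in either direction by edgeR, DESeq2 or limma-voom; 1 had an unadjusted p under 0.05, as lower, in DESeq2, and 0 in the other tools. With upper-quartile factors edgeR called 3 of them, beside the 47.5% given above. All 8 log2 fold changes were negative as reported, against 7 with RLE factors, 6 with total counts and 4 with factors taken from miRBase-named miRNAs. Of the 305 miRBase-named miRNAs, 260 were negative as reported, 238 with RLE factors, 205 with total counts and 171 with factors taken from these miRNAs. The median of the 8 was -0.35 beside -0.40 over miRBase-named miRNAs. miR-15a-5p, the guide nearest in sequence to miR-15b-5p, was at -0.29 ± 0.39 (SE; edgeR adjusted p = 0.559). miR-103-3p, known in mice for dampening insulin sensitivity, was at 563.5 ± 58.3 and 474 ± 82.2 CPM (SD, n = 3 per group; edgeR adjusted p = 0.305), and its close relative miR-107-3p at 109 ± 6.24 and 97.4 ± 12.3 CPM (SD, n = 3 per group; edgeR adjusted p = 0.453). miR-322-5p had a log2 change of -0.08 ± 0.17 and its 3p arm one of -0.40 ± 0.17 (SE; edgeR adjusted p = 0.737 and 0.107). The arms of miR-503 were at -0.54 ± 0.36 for 5p and -0.69 ± 0.35 for 3p (SE; edgeR adjusted p = 0.266 and 0.157). The passenger miR-16-3p, with 26, 23 and 21 counts in normal and 4, 0 and 5 in I-R libraries, was at -1.25 ± 0.84 (SE; edgeR adjusted p = 0.277) and, like miR-15b-3p, would not have passed the filter on the I-R libraries alone.

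**Figure D4:**
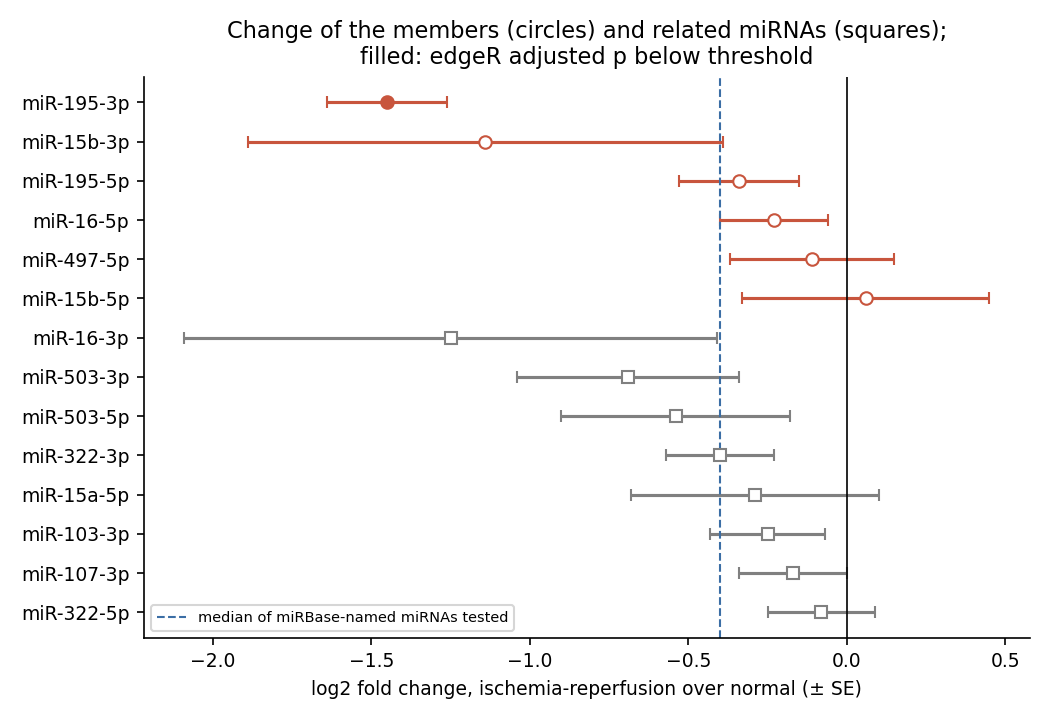
Log2 fold change, I-R over normal, with its SE for the 6 members (circles) and the 8 related miRNAs tested (squares); the dashed line is the median of miRBase-named miRNAs, -0.40. miR-195-3p is the filled symbol, at -1.45, and no other passed the edgeR test.

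Likeness of pattern was described by Pearson's r of log2(CPM + 1) over the 6 libraries, against 207 miRBase-named miRNAs; the libraries of a group share depth and treatment. miR-195-3p was most like miR-145-3p (r = 0.99), which fell from 950 ± 54.9 to 669 ± 45.7 CPM (SD, n = 3 per group; a log2 change of -0.51 ± 0.13, SE; edgeR adjusted p = 0.0205), and miR-17-5p (r = 0.98). miR-17-5p was not called lower, with a log2 change of -0.13 ± 0.2 (SE, edgeR adjusted p = 0.594), and r does not reflect the size of a change. The call of miR-145-3p was lost with total counts (-0.27, edgeR adjusted p = 0.165) and with factors taken from miRBase-named miRNAs (-0.16, edgeR adjusted p = 0.401), in the fit of miRBase-named miRNAs alone (edgeR adjusted p = 0.582), and in counts of its exact sequence (0.03, edgeR adjusted p = 0.981) or most abundant sequence (edgeR adjusted p = 0.156). It was also lost with the replicate block (edgeR adjusted p = 0.0646) and without I-R replicate 1, 2 or 3 or normal replicate 2 (edgeR adjusted p = 0.0636 to 0.101). miR-195-3p and its own guide were at r = 0.82. miR-195-5p was most like miR-503-5p and let-7g-5p (r = 0.96 each), and miR-16-5p most like miR-150-5p and miR-206-3p (r = 0.95 each). miR-497-5p was nearest to miR-201-5p (r = 0.95) and miR-181c-5p (r = 0.92), miR-15b-5p to miR-182 (r = 0.80) and miR-224-5p (r = 0.70), and miR-15b-3p to miR-598-3p (r = 0.97) and miR-140-3p (r = 0.96). Members placed side by side in RefSeq were at r = 0.49 for miR-15b-5p with miR-16-5p and r = 0.64 for miR-195-5p with miR-497-5p.

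The authors' deposited table, which compares means of normalized scores, gave miR-195-3p a ratio of 0.472, I-R over normal, with a p-value of 0.00145 and a false discovery rate of 0.0979. For the other 5 members the authors' deposited table gave ratios of 0.948 to 1.15 and false discovery rates of 0.56 to 0.927. Its group means carry 10 added to each, which by itself moves ratios of low miRNAs closer to 1. miR-15b-3p had a ratio of 0.972 in the authors' deposited table, beside an edgeR fold of 0.452, I-R over normal. The most abundant member, miR-16-5p, also differed, with a ratio of 1.02 beside an edgeR fold of 0.854. What part the added 10 has in these differences was not tested.

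**Figure D5:**
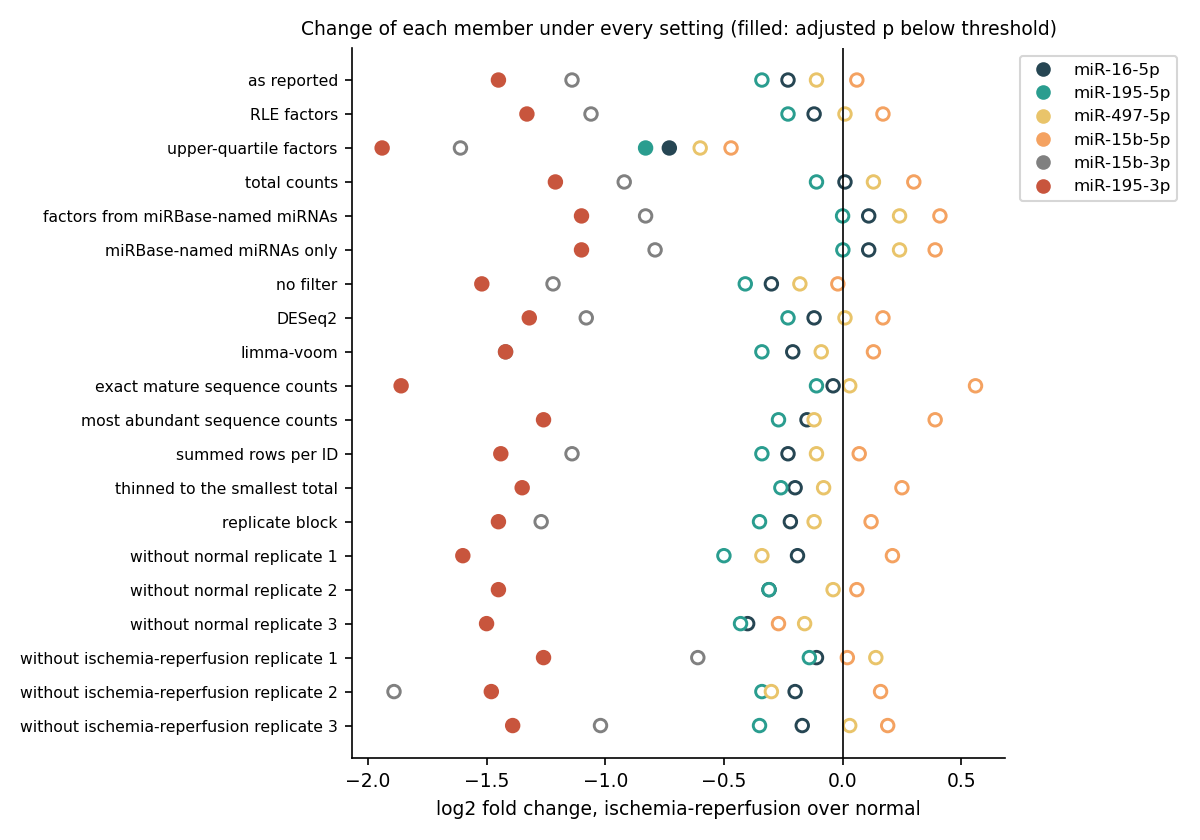
Log2 fold change of each member (colours) as reported and under each alternative setting (lines of the vertical axis); filled points passed an adjusted p of 0.05. miR-195-3p is filled under every setting, from -1.94 to -1.10, while miR-195-5p and miR-16-5p are filled with upper-quartile factors.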

How the data were processed

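Small RNA from whole rat hearts was ligated to adaptors, amplified by PCR, size selected and sequenced on an Illumina NextSeq, per the labels' protocols. The submitters' processing notes name Novoalign 2.07.11. The sources used here give neither its role nor the genome build, miRBase release or mismatch limit. The deposited tag counts per library, per the file headers, come in 3 forms: all isoforms, the listed mature sequence alone and the most abundant sequence. A blank was taken as 0, and the smallest count listed is 2. The authors' comparison of 589 rows, per the file headers, gives group means as a score, their ratio (a fold), and a p-value with its false discovery rate. The 36 columns of the authors' normalized values per sample were not used.

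All-isoform counts were tested, keeping the row with the highest total per mature ID. R 4.3.3 with edgeR 4.0.16 (filterByExpr by group with a minimum count of 10, TMM factors of 0.898 to 1.12, robust quasi-likelihood F test) was fitted over all entries, with Benjamini-Hochberg adjustment at 0.05. The SE is the log2 change over the root of its F statistic. Ratios and shares were compared with two-sided exact permutation tests, adjusted within each family. For shares in single libraries, 95% Wilson intervals were computed; they reflect counting error alone, because PCR copies were not marked by molecular identifiers. Alternatives were other scaling factors, filters, count measures, DESeq2 1.42.0, limma-voom (limma 3.58.1), thinning, a replicate block and leaving out each library.

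The members and lists were chosen with earlier results of these data known. Outside the members, the miRNAs named are 10 related arms and, for each member, the 2 miRBase-named miRNAs with the highest r among those with a mean of at least 10 CPM; markers of cell types and, for the arm ratios, pairs of arms that were both tested were also measured. Sequences and GRCr8 positions come from RefSeq tables.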

Additional observations from a re-analysis of the deposited data

How the results depend on the processing

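miR-195-3p was called lower under all 19 alternatives (log2 fold change -1.94 to -1.10), and its ratio to miR-195-5p stayed lower (-1.77 to -1.05 over 11). The number of members called lower went from 1 to 3 with upper-quartile factors and stayed at 1 otherwise; none was called higher. For the 5p members the sign of the log2 fold change depended on the setting, and the cause was not tested. miR-15b-5p was at -0.47 with upper-quartile factors, -0.02 with no filter and -0.27 (without normal replicate 3) to 0.21 when 1 library was left out. miR-16-5p was at 0.01 with total counts and 0.11 both with factors from miRBase-named miRNAs and with these fitted alone, where miR-195-5p was at 0.0011. miR-497-5p was at 0.01 with RLE factors and in DESeq2, 0.13 with total counts, 0.24 with factors from miRBase-named miRNAs and with these alone, 0.03 in exact counts, and -0.34 to 0.14 when 1 library was left out. miR-15b-3p gave a value under 13 alternatives (-1.89 to -0.61), since it did not pass the filter under the others. The share of all counts held by the 5p members differed by -0.001 points, and by 0.00518 among miRBase-named miRNAs, 0.00335 in exact counts, 0.00208 in most abundant sequence counts and -0.00523 to 0.00251 when 1 library was left out. Exact-sequence shares likewise turned when 1 library was left out, from -1.003 to 1.51 points for miR-16-5p, -2.96 to 2.97 for miR-195-5p and -6.21 to 5.55 for miR-497-5p.

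Same-numbered libraries did not deviate together (r = -0.197, 0.0191 and -0.12). With 3 libraries per group, these values cannot decide whether the numbers pair them. With the replicate block, miR-195-3p was at -1.45 (edgeR adjusted p = 0.00886), and no other member was called. The miR-195 arm ratio under the same pairing differed by -1.10 (exact sign-flip p = 0.25, the smallest possible). Depth limits miR-15b-3p most, with 0 to 6 counts per ischemia-reperfusion library.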
